A study of Glycine max with 12 samples.

Results

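The abscisic acid (ABA) genes of soybean leaf were followed in 12 RNA sequencing libraries of plants under saline-alkali stress. They are the genes whose description in the deposited table names abscisic acid, zeaxanthin epoxidase, 9-cis-epoxycarotenoid dioxygenase, the ABA receptor PYL, an ABA-responsive element or a dehydrin. A literal match of these words gave 82 genes, of which 17 were set aside because the letters lay inside another name (12 isopropylmalate genes, 1 carboxypropyl gene and 4 SABRE genes). That left 65 of the 46446 genes in the table. None of the protein phosphatase 2C descriptions carried the symbols ABI, HAB or AHG, so the phosphatases of the pathway are described separately below. The 65 genes comprise 4 zeaxanthin epoxidases, 3 9-cis-epoxycarotenoid dioxygenases, 4 abscisic-aldehyde oxidases, 12 abscisic acid 8'-hydroxylases, 24 receptors, 12 transcription factors of the ABI5 type, 4 dehydrins and 2 abscisic stress-ripening genes. In the 6 roles for which the table has an entry of the KEGG pathway catalogue, 57 of 59 genes carried the entry of their role.

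All plants were cultivar HN95, labelled wild type, grown in pots of peat soil and vermiculite that received a mixed solution of NaCl and Na2CO3 (40 mM each) with NaHCO3 and Na2SO4 (320 mM each). Leaves were sprayed with 200 mg/L nano-SiO2 and 300 µM melatonin together (nano-SiO2+MT), with 200 mg/L nano-SiO2 alone, with 300 µM melatonin alone (MT) or with neither (control, for which the labels name no spray), and sampled on day 7. Each group has 3 libraries with 1 shared batch label. They are labelled biological replicates, but whether each is a different plant or pool is not stated, and the p-values therefore reflect a spread between libraries that may be partly technical. There is no unstressed group, and every comparison is between sprays on stressed plants.

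ABA is made from carotenoids. In the chloroplast zeaxanthin epoxidase forms violaxanthin, 9-cis-epoxycarotenoid dioxygenase (NCED) cleaves the epoxycarotenoid to xanthoxin, and abscisic-aldehyde oxidase completes the hormone in the cytosol, while 8'-hydroxylases start its breakdown. Bound ABA lets the PYR and PYL receptors block type 2C protein phosphatases, which frees SnRK2 kinases to act on transcription factors such as ABI5 and on anion channels, and in leaves this closes stomata and turns on protective proteins under drought and salt.

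Values are FPKM, fragments divided by transcript length and by the library's total, so levels can be compared between genes. Tests used limma on log2(FPKM + 1) over the 28260 genes that reached 1 FPKM in 3 libraries or more, and a gene was called at a Benjamini-Hochberg adjusted p under 0.05 over all of them. Log2 changes are on the log2(FPKM + 1) scale, which understates changes of low genes. Summed FPKM was between 522120 and 559092 per library, and the relative depth read from the steps between low values lay between 0.851 and 1.26 around the mean. Absolute depth is unknown. Libraries of 1 group correlated at 0.958 to 0.992, and earlier results of these data put control 1 and nano-SiO2 2 apart from their groups. Leaf markers (61 genes, such as those of the small subunit of Rubisco and chlorophyll a-b binding proteins) summed to 42924 FPKM or more in each library, while the oleosin and glycinin genes of seed did not exceed 0.153 FPKM. The whole seed list of 43 genes, 9 of them tested and 2 of these called higher with MT, summed to 117 to 132 FPKM with nano-SiO2+MT, 93.7 to 129 with nano-SiO2, 132 to 151 with MT and 114 to 124 in the control. The root and nodule list held 44 genes, 19 of them tested. Sums were 853 to 1151 FPKM with nano-SiO2+MT, 741 to 853 with nano-SiO2, 826 to 969 with MT and 857 to 1078 in the control. Of its tested genes, 1 was called higher with MT and 1 lower with nano-SiO2+MT. Over all 28260 tested genes, 470 were called higher with MT and 180 lower with nano-SiO2+MT. The genes that entered this list by the word leghemoglobin were reductases, Glyma.17G037900 and Glyma.07G232900, at means of 144 and 13.2 FPKM.

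Of the 65 ABA genes, 33 passed the filter and 32 did not. Mean levels over the 12 libraries ran from 0.00201 to 416 FPKM, 11 genes averaged at least 10 FPKM, 16 averaged under 0.1 FPKM, and 20 were listed at 0 in at least 1 library. In most roles 1 gene carried the larger part of the transcript. The most abundant gene held 99.5% of the summed FPKM of the zeaxanthin epoxidases, 99.6% of the dehydrins, 98.3% of the stress-ripening genes, 90.7% of the aldehyde oxidases, 88.7% of the NCED genes and 72.8% of the 8'-hydroxylases. Among the transcription factors this share was 68.2%. The receptors were spread more evenly, with 23.3% in the most abundant gene. Within groups, control 1 was the lowest of its 3 libraries for 19 of the 33 tested genes and MT 3 for 17, and nano-SiO2+MT 3 was the highest of its 3 for 17.

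**Figure D1:**
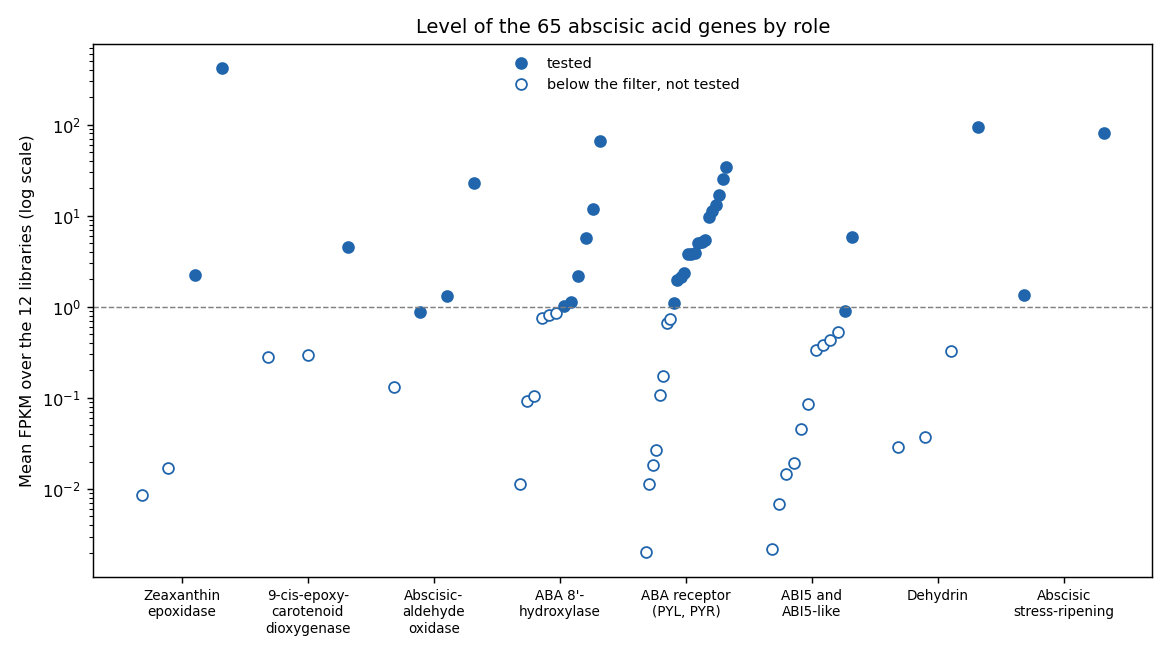
Mean FPKM over the 12 libraries (log axis) of each of the 65 ABA genes, by role. Filled points are the 33 genes that passed the filter, open points the 32 that did not, and the dashed line marks 1 FPKM. A single gene stands far above the others for zeaxanthin epoxidase (416 FPKM), dehydrin (94.2 FPKM) and stress-ripening (79.9 FPKM), whereas the receptors form a ladder up to 34.0 FPKM.

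The comparisons ask whether the combined spray, the particles or melatonin moved these genes relative to stressed control leaves, and whether the combination differed from its components. A single ABA gene was called. The abscisic stress ripening-like gene Glyma.20G167500 on chromosome 20 was higher with nano-SiO2+MT and with MT than in the control. This is 1 of the 33 tested ABA genes, or 3.03%, against 1.37% of all tested genes called for nano-SiO2+MT against control (0.729% called higher) and 3.35% for MT against control (1.66% called higher). For nano-SiO2 against control 0 were called, against 0.492% of all genes. Read against these shares, 1 gene of 33 is near the background in both comparisons. By the F test over the 4 groups the same gene was the only ABA gene called, 3.03% of those tested against 4.12% of all genes.

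Beside the counts of 0 stand those at an unadjusted p under 0.05 in limma. These counts are of 33 ABA genes and of 28260 genes in all. For nano-SiO2 against control this was 5 ABA genes, with 3019 of all genes. The combined spray against nano-SiO2 gave 0 calls (background 1.53%) and 3 genes at an unadjusted p under 0.05, with 5214 of all genes. Against MT it gave 0 calls (background 0.294%) and 1 such gene, with 1296 of all genes. The interaction, which asks whether the MT effect differed in the presence of the particles, gave 0 calls (background 0.524%) and 3 such genes, with 2415 of all genes. The 3 comparisons with the control share its 3 libraries and are therefore not independent of each other.

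The median log2 change of the 33 genes was 0.17 for nano-SiO2+MT, 0.15 for nano-SiO2 and 0.08 for MT, each against control, and over all tested genes it was -0.05, 0.10 and -0.05. Libraries of the spray and the control did not overlap for 7 ABA genes with nano-SiO2+MT (21.2%, against 19.4% of all tested genes), for 6 with nano-SiO2 (18.2%, against 16.0%) and for 11 with MT (33.3%, against 23.2%). In these bulk leaf samples fewer cells of a type and less RNA per cell cannot be told apart.

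**Figure D2:**
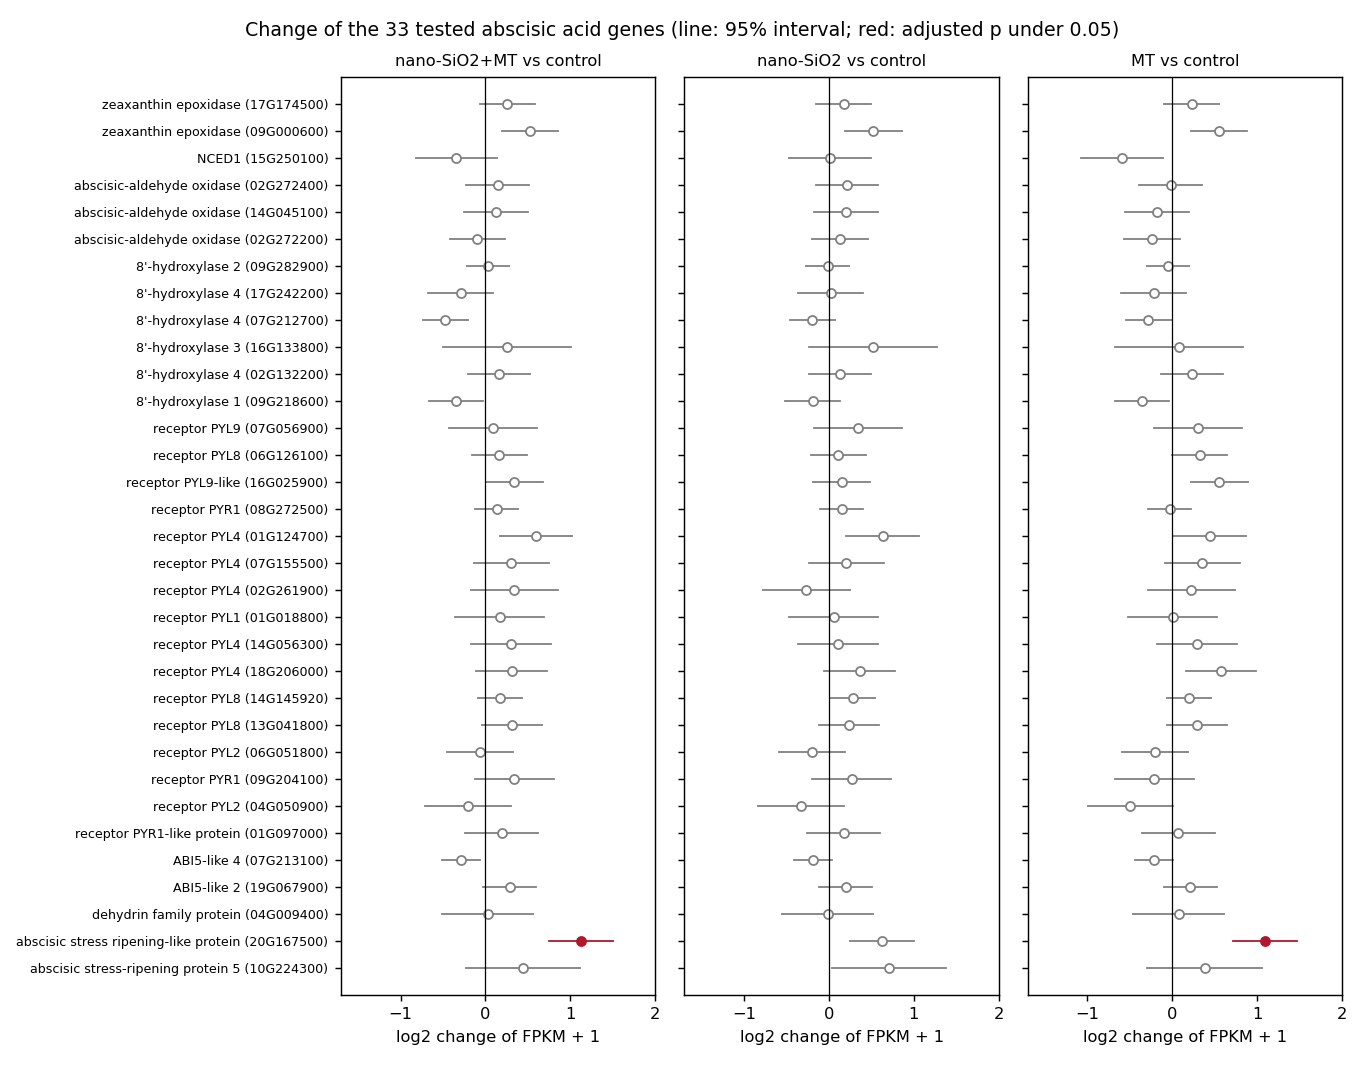
Log2 change of FPKM + 1 of the 33 tested ABA genes, ordered by role and level, for nano-SiO2+MT, nano-SiO2 and MT, each against control. Points are estimates and lines 95% intervals from limma, and red marks an adjusted p under 0.05. The stress ripening-like gene at 1.13 and 1.09 is the only red point, in the nano-SiO2+MT and MT panels.

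Zeaxanthin epoxidase, which also returns zeaxanthin to violaxanthin in the xanthophyll cycle of photoprotection, was represented by Glyma.17G174500 on chromosome 17, the most abundant ABA gene. It had 449, 382 and 499 FPKM with nano-SiO2+MT, 413, 375 and 463 with nano-SiO2, 517, 407 and 380.3 with MT, and 348, 385 and 372 in the control. The groups overlapped, with 1 of the 3 control libraries inside the range of each sprayed group, and the F test did not call the gene (adjusted p = 0.607). The 95% intervals of its log2 change were -0.06 to 0.58 for nano-SiO2+MT, -0.15 to 0.50 for nano-SiO2 and -0.10 to 0.55 for MT, each against control.

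The other tested epoxidase, Glyma.09G000600 on chromosome 9, was far less abundant, at a mean of 2.26 FPKM. It had 2.43, 2.09 and 3.04 FPKM with nano-SiO2+MT, 2.26, 2.35 and 2.90 with nano-SiO2, 2.11, 2.37 and 3.28 with MT, and 1.27, 1.73 and 1.31 in the control. Every sprayed library lay above every control library. The log2 changes against the control were 0.52 for nano-SiO2+MT (adjusted p = 0.135), 0.52 for nano-SiO2 (adjusted p = 0.238) and 0.55 for MT (adjusted p = 0.0740), each with SE 0.15, and none passed in limma. The MT difference passed when libraries were rescaled, by median ratios (0.59, adjusted p = 0.0316) or by quantile normalization (0.62, adjusted p = 0.0243). Its interaction estimate had the smallest unadjusted p among the ABA genes, 0.0266, with an adjusted p of 0.493 (log2 -0.55, SE 0.22). The remaining 2 epoxidase genes reached at most 0.0534 FPKM in a library.

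NCED catalyses the cleavage regarded as the main control point of ABA synthesis. Of 3 genes, Glyma.15G250100 (NCED1) on chromosome 15 was the only one tested. It had 3.67, 4.48 and 3.77 FPKM with nano-SiO2+MT, 4.25, 5.37 and 6.67 with nano-SiO2, 2.15, 4.65 and 3.08 with MT, and 7.28, 4.77 and 4.21 in the control. Control 1 was the highest of all libraries, and MT 2 and nano-SiO2+MT 2 reached into the range of the control. For MT against control the log2 change was -0.59 (SE 0.22, unadjusted p = 0.0195, adjusted p = 0.183) and was not called. Without control 1 and nano-SiO2 2 it was -0.39 (adjusted p = 0.367). The combined spray differed from the control by less than this spread resolves (95% interval -0.82 to 0.14), as did nano-SiO2 (95% interval -0.47 to 0.49). The other two NCED genes reached at most 0.439 FPKM.

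The aldehyde oxidase that makes ABA from abscisic aldehyde was carried by Glyma.02G272400 on chromosome 2, at 21.9, 20.7 and 28.8 FPKM with nano-SiO2+MT, 21.5, 26.5 and 26.7 with nano-SiO2, 20.9, 21.2 and 20.5 with MT, and 16.1, 23.9 and 24.7 in the control. The ranges overlapped, except that the MT libraries all lay just below those of nano-SiO2. The MT libraries were the closest together (20.9 ± 0.315 FPKM, SD, n = 3) while those of the control were the widest (21.6 ± 4.75). The neighbouring Glyma.02G272200 averaged 0.813 ± 0.153 FPKM with nano-SiO2+MT, 1.12 ± 0.251 with nano-SiO2, 0.636 ± 0.101 with MT and 0.949 ± 0.311 in the control. Neither passed the F test (adjusted p = 0.684 and 0.419). With Glyma.02G272301 these genes have adjacent identifiers on chromosome 2 and may be close copies that share reads, so the split of fragments among them is uncertain.

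On the breakdown side, Glyma.09G282900, described as abscisic acid 8'-hydroxylase 2, was the most abundant of 12 genes. It had 65.4, 63.1 and 72.7 FPKM with nano-SiO2+MT, 64.5, 65.8 and 64.4 with nano-SiO2, 63.9, 65.8 and 60.8 with MT, and 57.7, 71.3 and 68.7 in the control. Its level was nearly the same in every group, and the 95% interval of its log2 change against control was -0.22 to 0.28 for nano-SiO2+MT, -0.27 to 0.23 for nano-SiO2 and -0.30 to 0.20 for MT.

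The 8'-hydroxylase 4 gene Glyma.07G212700 on chromosome 7 was lower in level, at 4.01, 4.44 and 5.40 FPKM with nano-SiO2+MT, 6.29, 5.38 and 5.68 with nano-SiO2, 5.27, 5.83 and 5.03 with MT, and 6.23, 7.37 and 6.71 in the control. The nano-SiO2+MT and MT libraries all lay below the control libraries, while 1 nano-SiO2 library overlapped them. The log2 change for nano-SiO2+MT against control was -0.47 (SE 0.12, adjusted p = 0.0909) and that for MT was -0.28 (SE 0.12, adjusted p = 0.259). Neither was called, under any of the alternatives run. Of the 6 tested 8'-hydroxylases 0 were called in any comparison, and the summed FPKM of all 12 was 88.8 ± 8.07 with nano-SiO2+MT, 92.1 ± 0.796 with nano-SiO2, 86.5 ± 2.79 with MT and 91.8 ± 11.2 in the control (SD, n = 3 each).

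**Figure D3:**
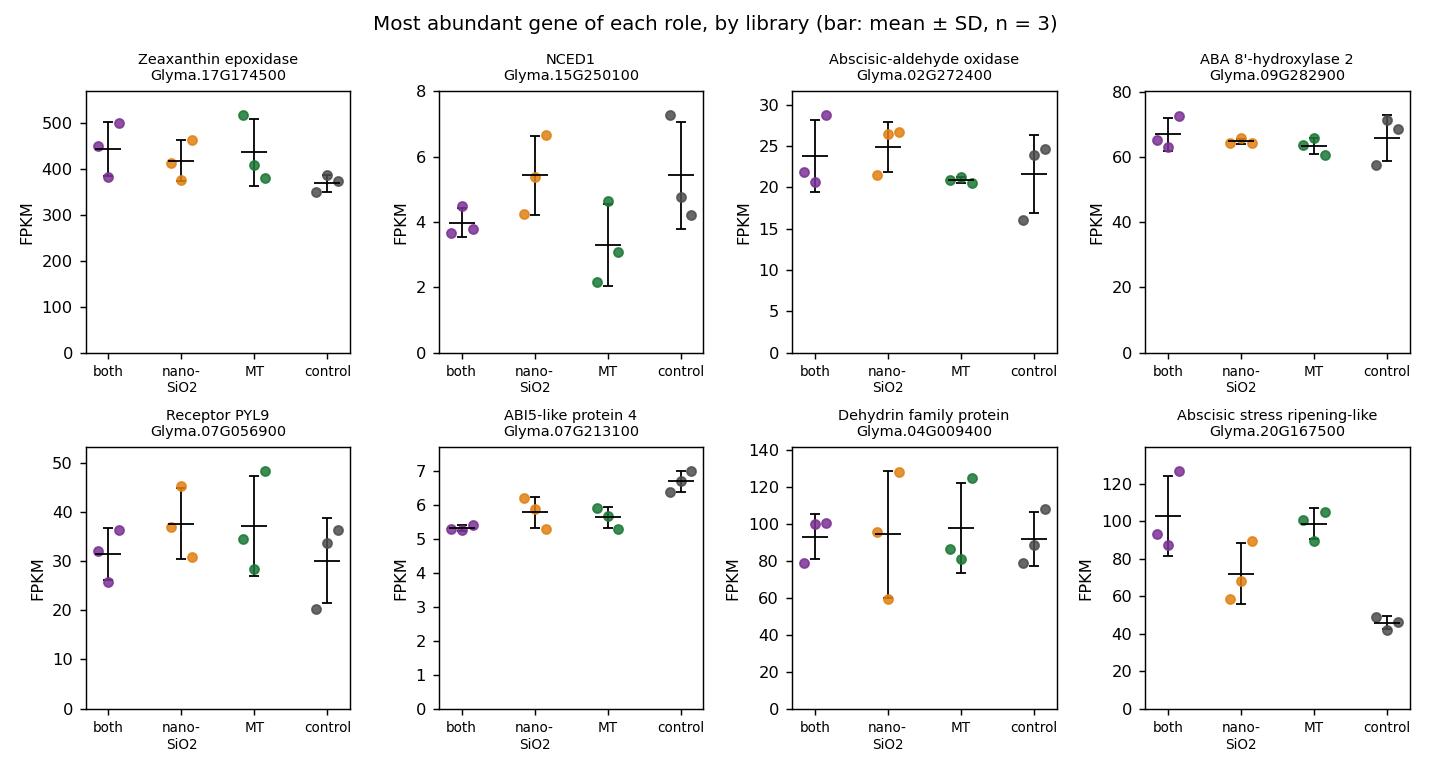
FPKM of the most abundant gene of each role in the 12 libraries, on linear axes from 0 ("both" is nano-SiO2+MT). Points are libraries and bars mean ± SD of 3. The stress ripening-like gene shows the separation from the control, with MT at 89.6 to 105 FPKM and nano-SiO2+MT at 87.4 to 127 FPKM above control libraries at 42.3 to 49.2 FPKM, and the 8'-hydroxylase 2 gene stays between 57.7 and 72.7 FPKM.

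Of the 24 receptor genes, 16 were tested and 0 were called in any comparison. By mean level the order was Glyma.07G056900 (PYL9, 34.0 FPKM), Glyma.06G126100 (PYL8), Glyma.16G025900 (PYL9-like, 16.9 FPKM), Glyma.08G272500 (PYR1, 13.2 FPKM) and Glyma.01G124700 (PYL4, 11.3 FPKM). The PYL8, PYR1 and PYL4 genes are named here after their values were seen. PYL8 and PYL9 are monomeric receptors in Arabidopsis, and PYR1, PYL1 and PYL2 are dimeric there. The PYL9 gene ranged from 20.2 to 48.3 FPKM and the PYL8 gene from 20.0 to 34.1 FPKM. These ranges overlapped, but within every library the PYL9 gene was the higher, in control 1 by very little (20.2 against 20.1 FPKM). All of the other receptors stayed at or below 24.9 FPKM, and the 8 untested ones at or below 1.20 FPKM.

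The PYL9 gene had 32.1, 25.8 and 36.2 FPKM with nano-SiO2+MT, 37.0, 45.2 and 30.8 with nano-SiO2, 34.5, 28.4 and 48.3 with MT, and 20.2, 33.7 and 36.2 in the control. The groups overlapped, and control 1 was the lowest library (F test adjusted p = 0.667). The PYL9-like gene had 18.7, 16.2 and 17.8 FPKM with nano-SiO2+MT, 17.4, 14.7 and 13.9 with nano-SiO2, 19.5, 17.8 and 24.9 with MT, and 11.2, 14.3 and 16.0 in the control. Its MT and nano-SiO2+MT libraries all lay above those of the control, again with control 1 lowest, and the nano-SiO2 libraries overlapped it.

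For MT against control the PYL9-like gene had a log2 change of 0.55 (SE 0.16, adjusted p = 0.0746), which was not called with FPKM as deposited. It passed after median-ratio scaling (0.62, adjusted p = 0.0285) and after quantile normalization (0.56, adjusted p = 0.0384). Without control 1 and nano-SiO2 2 together it was 0.42 (adjusted p = 0.171). For nano-SiO2+MT against control it was 0.34 (SE 0.16, adjusted p = 0.412).

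Among the PYL4 genes a pair, also chosen after their values were seen, had the largest estimates among receptors for the sprays against control. Glyma.01G124700 had 13.1, 14.8 and 10.2 FPKM with nano-SiO2+MT, 13.8, 12.0 and 13.0 with nano-SiO2, 13.2, 13.1 and 8.05 with MT, and 10.3, 6.62 and 7.39 in the control. The nano-SiO2 libraries were all above the control, and the other sprays overlapped it through 1 library each (log2 change for nano-SiO2 0.63, SE 0.20, adjusted p = 0.274). Glyma.18G206000 had 3.95, 4.13 and 3.38 FPKM with nano-SiO2+MT, 3.89, 5.56 and 2.88 with nano-SiO2, 5.35, 5.32 and 3.79 with MT, and 3.49, 2.27 and 3.00 in the control. Its MT libraries lay above the control and the others overlapped it (log2 change for MT 0.57, SE 0.19, adjusted p = 0.134).

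Taken as a class, the 16 tested receptors had positive estimates for 14 genes with nano-SiO2+MT, 13 with nano-SiO2 and 12 with MT, each against control. Over all 28260 tested genes, estimates were positive for 10994, 19506 and 11518, in the same order. The median log2 changes of the receptors were 0.25, 0.16 and 0.26, against -0.05, 0.10 and -0.05 over all tested genes. The summed FPKM of the 24 receptor genes was 146 to 157 with nano-SiO2+MT, 132 to 160.1 with nano-SiO2, 153 to 164 with MT and 125 to 134 in the control. The sums of nano-SiO2+MT and MT lay above those of the control without overlap, and those of nano-SiO2 overlapped them. No test was made on the sum. Several PYL genes have close relatives in the duplicated soybean genome, and how the authors divided shared fragments is unknown.

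The partners that the receptors inhibit are some of the type 2C protein phosphatases. All genes described as such phosphatases, partners or not, belong to a list of 248 pathway genes outside the 65. Of this list 176 genes were tested. Its 120 tested phosphatases held both genes of the list that were called. The probable protein phosphatase 2C 27 gene Glyma.13G165300 on chromosome 13 had 16.1, 16.1 and 15.5 FPKM with nano-SiO2+MT, 26.8, 26.9 and 23.4 with nano-SiO2, 16.4, 18.0 and 19.2 with MT, and 28.7, 34.0 and 29.8 in the control. Libraries of nano-SiO2+MT and MT lay below all libraries of nano-SiO2 and the control. The gene fell by 0.91 on the log2 scale with nano-SiO2+MT (SE 0.11, adjusted p = 0.00230) and fell by 0.75 with MT (SE 0.11, adjusted p = 0.00307), each against control, in every alternative run. Against nano-SiO2 alone it fell by 0.66 with nano-SiO2+MT (SE 0.11, adjusted p = 0.0150); this call was lost without nano-SiO2 1, nano-SiO2 2 or nano-SiO2+MT 1 (adjusted p up to 0.0730), after median-ratio scaling (log2 -0.47, adjusted p = 0.0638), without control 1 and nano-SiO2 2 together (adjusted p = 0.0556) and with only both groups in the model (adjusted p = 0.0766). The gene carries no entry for the ABA phosphatases of the KEGG catalogue, and the description does not tie it to ABA.

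The other called phosphatase, Glyma.14G066400 on chromosome 14, is described as protein phosphatase 2C 37, the number that the ABA co-receptor PP2CA has in Arabidopsis. It had 8.17, 10.0 and 7.64 FPKM with nano-SiO2+MT, 11.6, 8.76 and 10.3 with nano-SiO2, 8.76, 9.93 and 8.19 with MT, and 14.5, 14.7 and 13.4 in the control. All 9 sprayed libraries lay below the 3 control libraries. The gene fell by 0.67 on the log2 scale with nano-SiO2+MT (SE 0.13, adjusted p = 0.0284) and fell by 0.61 with MT (SE 0.13, adjusted p = 0.0252), each against control, whereas for nano-SiO2 the change was -0.44 (SE 0.13, adjusted p = 0.248) and was not called. The MT call was lost without MT 1, MT 3 or any 1 of the control libraries (adjusted p up to 0.111), and the nano-SiO2+MT call without nano-SiO2+MT 1, nano-SiO2+MT 3 or any 1 of the control libraries (adjusted p up to 0.143). Both were lost under median-ratio scaling (adjusted p = 0.0773 for MT and 0.0890 for nano-SiO2+MT) and quantile normalization (adjusted p = 0.0605 and 0.0774), and the nano-SiO2+MT call also with no filter on low values (adjusted p = 0.0528) and without control 1 and nano-SiO2 2 together (adjusted p = 0.0510).

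A set of 18 phosphatase genes that carry the KEGG entry of the ABA co-receptors was formed after the values were seen. Of its 15 tested genes, 1 was called lower for MT and the same gene for nano-SiO2+MT, and 0 were called for nano-SiO2. That is 6.67% of the tested genes, 1 gene, against 3.35% of all genes for MT and 1.37% for nano-SiO2+MT, and nothing is read from it. The most abundant, Glyma.02G250200, is another gene described as protein phosphatase 2C 37. It had 19.2, 19.4 and 17.9 FPKM with nano-SiO2+MT, 22.5, 16.3 and 20.3 with nano-SiO2, 16.6, 20.2 and 17.4 with MT, and 25.5, 23.9 and 25.5 in the control. Here too every sprayed library lay below every control library, and the change was not called in limma (SE 0.13 for each spray). Log2 changes were -0.39 with nano-SiO2+MT (adjusted p = 0.196), -0.34 with nano-SiO2 (adjusted p = 0.396) and -0.45 with MT (adjusted p = 0.0777). The other tested genes described as protein phosphatase 2C 37 did not share this separation. Glyma.11G222600 had 6.70, 6.58 and 7.66 FPKM with nano-SiO2 against 6.60, 6.31 and 5.82 in the control. Its nano-SiO2+MT libraries (4.48, 4.71 and 4.86 FPKM) lay below the control. Glyma.18G035000 had libraries of every spray inside the range of the control. Glyma.06G054000, described as phosphatase 77, the number of ABI2 in Arabidopsis, averaged 14.5 ± 0.627 FPKM with nano-SiO2+MT, 16.7 ± 0.716 with nano-SiO2, 16.2 ± 1.43 with MT and 16.6 ± 1.79 in the control. It was not called (F test adjusted p = 0.610), and its MT, nano-SiO2 and control libraries overlapped. The summed FPKM of the 18 genes was 119 ± 2.16 with nano-SiO2+MT, 138 ± 4.81 with nano-SiO2, 126 ± 7.51 with MT and 142 ± 7.30 in the control.

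**Figure D4:**
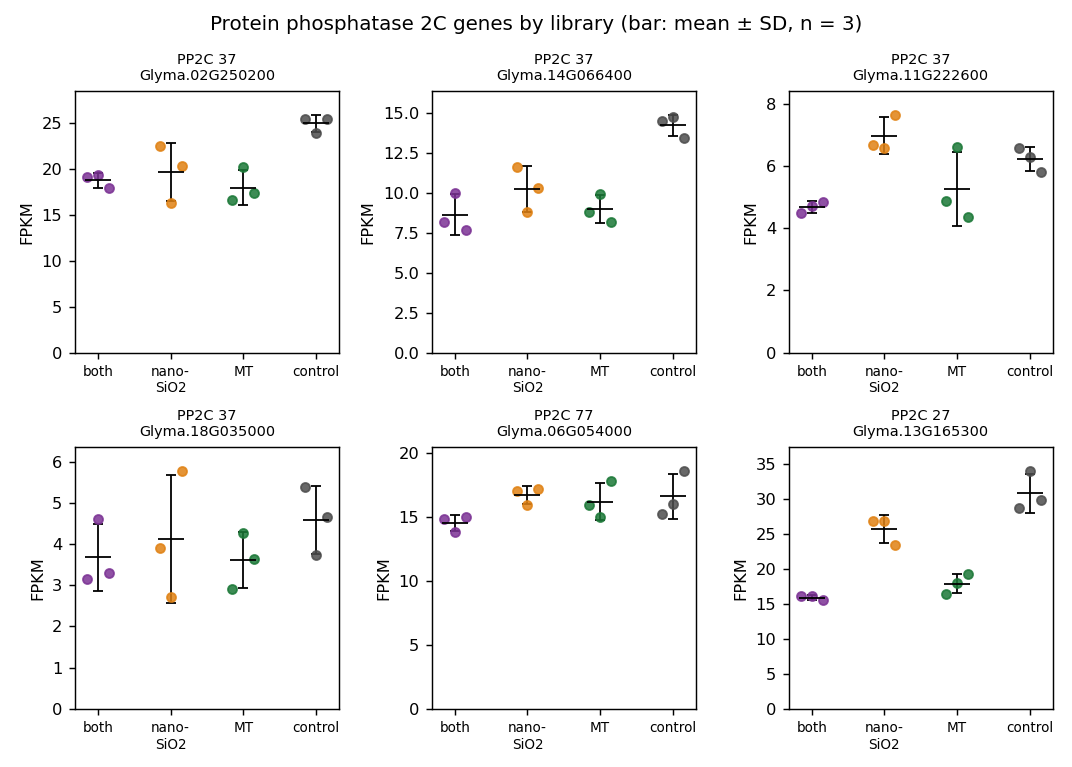
FPKM of 6 protein phosphatase 2C genes in the 12 libraries, chosen after their values were seen, on linear axes from 0 ("both" is nano-SiO2+MT). Points are libraries and bars mean ± SD of 3. Glyma.13G165300 lies at 15.5 to 19.2 FPKM with nano-SiO2+MT and MT and at 23.4 FPKM or more with nano-SiO2 and in the control, and in Glyma.14G066400 and Glyma.02G250200 the control libraries are above all sprayed ones.

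Elsewhere in the pathway list 0 genes were called. This held for 20 tested SnRK2 kinases of 23, which carry the ABA signal onward, and for 6 tested S-type anion channels of 9, the outlets of guard cells. The same was true of 4 tested beta-carotene hydroxylases, 2 xanthoxin dehydrogenases and 4 tested molybdenum cofactor sulfurases, which supply or activate the steps of synthesis. It was also true of 3 violaxanthin de-epoxidases, which act opposite to zeaxanthin epoxidase in the xanthophyll cycle. It also held for 10 tested HVA22 genes of 23, 5 tested LEA proteins of 26 and 2 ABCG transporters, and the 6 low-temperature-induced genes were all under the filter. In all, the list had 2 of 176 genes called for nano-SiO2+MT and 2 for MT, each 1.14% and lower than the control, and 1 lower for nano-SiO2+MT against nano-SiO2 (0.568%). Over all 28260 tested genes the shares called in either direction were 1.37% for nano-SiO2+MT against control, 3.35% for MT against control and 1.53% for nano-SiO2+MT against nano-SiO2, so the list was not above the background. The other comparisons called 0. At an unadjusted p under 0.05 in limma there were 22 genes of the list for nano-SiO2 against control, 4 for nano-SiO2+MT against MT and 13 for the interaction. These counts are of 176 genes. Over all 28260 tested genes they were 3019, 1296 and 2415, in the same order.

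Of the 12 transcription factor genes of the ABI5 type, bZIP proteins that bind ABA-responsive promoter elements, 2 were tested. Glyma.07G213100 (ABI5-like protein 4) on chromosome 7 had 5.30, 5.25 and 5.40 FPKM with nano-SiO2+MT, 6.19, 5.88 and 5.28 with nano-SiO2, 5.92, 5.68 and 5.29 with MT, and 6.37, 6.70 and 6.99 in the control. All sprayed libraries lay below all control libraries by a small margin. The log2 change with nano-SiO2+MT was -0.28 (SE 0.10, adjusted p = 0.251) and was not called, nor did the F test call the gene (adjusted p = 0.338). The other tested gene, Glyma.19G067900 (ABI5-like protein 2, named because it completes the tested genes of the role), lay on the other side of the control, at 1.03 ± 0.218 FPKM with nano-SiO2+MT, 0.919 ± 0.229 with nano-SiO2, 0.934 ± 0.186 with MT and 0.666 ± 0.118 in the control. Its nano-SiO2 and MT libraries overlapped the control, and the 95% interval of the log2 change with nano-SiO2+MT was -0.03 to 0.60 (F test adjusted p = 0.553). The 10 untested genes, those described as ABI5 itself among them, reached at most 0.865 FPKM in a library.

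The dehydrins, hydrophilic proteins that protect cells in drying tissue, were represented by Glyma.04G009400 on chromosome 4. It had 78.8, 100.2 and 100.3 FPKM with nano-SiO2+MT, 95.7, 59.4 and 128 with nano-SiO2, 86.4, 81.2 and 125 with MT, and 79.0, 88.4 and 108 in the control. The highest group mean was 97.7 ± 24.2 FPKM with MT and the lowest 91.7 ± 14.6 FPKM in the control, and the libraries within a group differed more than the means (F test adjusted p = 0.991). The 95% interval of the log2 change against control was -0.51 to 0.56 for nano-SiO2+MT, -0.55 to 0.52 for nano-SiO2 and -0.46 to 0.61 for MT. The other three dehydrin genes reached at most 0.475 FPKM.

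The abscisic stress-ripening genes encode small hydrophilic proteins first described in tomato, where their transcripts accumulate with ABA, drought and fruit ripening. Glyma.20G167500 had 93.1, 87.4 and 127 FPKM with nano-SiO2+MT, 58.4, 68.4 and 89.8 with nano-SiO2, 101, 89.6 and 105 with MT, and 49.2, 42.3 and 46.3 in the control. Every sprayed library was above every control library, and the nano-SiO2 libraries lay between the control and the other sprays, with nano-SiO2 3 overlapping both.

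The gene rose by 1.13 on the log2 scale with nano-SiO2+MT (SE 0.17, 2.18-fold in FPKM + 1, adjusted p = 0.00813) and by 1.09 with MT (SE 0.17, 2.13-fold in FPKM + 1, adjusted p = 0.00431), each against control. With nano-SiO2 the change was 0.62 (SE 0.17, adjusted p = 0.205) and was not called. The MT call held in all 20 alternatives (adjusted p up to 0.0323). The nano-SiO2+MT call held in 19 of 20 and was lost without control 2 (log2 change 1.07, adjusted p = 0.0591). Without control 1 and nano-SiO2 2 together both calls held, at 1.18 with nano-SiO2+MT (adjusted p = 0.0286) and 1.14 with MT (adjusted p = 0.0172).

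The combined spray did not differ from MT in this gene beyond the error, with a 95% interval of the log2 difference of -0.34 to 0.41. Against nano-SiO2 the difference was 0.50 (SE 0.17, adjusted p = 0.164). The interaction was -0.59 (SE 0.25, unadjusted p = 0.0333, adjusted p = 0.521), so a difference between the MT effect with and without the particles was not shown.

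Markers of other cell states moved in the same comparison. Of 15 tested genes of senescing leaf (16 in the list), 4 were called higher with MT and 1 with nano-SiO2+MT, and their summed FPKM was 1124 to 1374 with nano-SiO2+MT, 1018 to 1279.8 with nano-SiO2, 1272 to 1439 with MT and 969 to 990.3 in the control. Of 39 tested xylem genes, 11 were called lower with MT and 2 with nano-SiO2+MT, and the 93 genes of that list summed to 85.6 to 239.8 FPKM with nano-SiO2+MT, 221 to 497 with nano-SiO2, 73.1 to 105 with MT and 180.5 to 298 in the control. Of 51 tested leaf markers, 4 were called lower with MT and 0 with nano-SiO2+MT. The part of these markers in the changes of the stress ripening-like gene and of the phosphatases was not tested.

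The second gene of the family, Glyma.10G224300, described as abscisic stress-ripening protein 5 and given because it completes the family, was at 0.597, 1.30 and 2.45 FPKM with nano-SiO2+MT, 1.19, 1.09 and 3.81 with nano-SiO2, 0.975, 1.13 and 1.65 with MT, and 0.590, 0.774 and 0.792 in the control. Its nano-SiO2 and MT libraries were above the control and 1 nano-SiO2+MT library overlapped it. No change was called (F test adjusted p = 0.490), and library 3 was the highest in each of the 4 groups.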

How the data were processed

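Polyadenylated leaf RNA of 12 libraries in 4 groups of 3 was enriched with oligo(dT) beads, cut to fragments and amplified by PCR, per the labels' protocols. Per the file headers, the authors deposited FPKM values, 1 for each gene in each library, with gene identifiers of annotation Wm82.a4.v1, whose number before G is the chromosome. R 4.1.2 and DESeq2 1.34.0 are named in the submitters' processing notes. Aligner, quantifier and strandedness: not given in the sources used here. A RefSeq table of assembly Glycine_max_v4.0 matched 0 of 65 ABA identifiers, so no coordinates are given.

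The 28260 genes that reached 1 FPKM in 3 libraries or more were fitted with limma 3.58.1 in R 4.3.3 on log2(FPKM + 1), with 1 mean per group over all 12 libraries and eBayes with trend and robust settings. Tests were two-sided, with Benjamini-Hochberg adjustment over all tested genes and calls at an adjusted p under 0.05. Each spray was set against the control, nano-SiO2+MT also against nano-SiO2 and against MT, and an interaction contrast compared the MT effect with and without particles. Deviations from the group means of libraries with the same replicate number correlated above 0.1 in each pair of nano-SiO2+MT and MT (0.14, 0.38 and 0.36) and not in each pair of any other groups, so the comparison of these groups was also made with a replicate block. The labels do not say what the number marks. The workflow was tested on simulated data. Alternatives were a pseudocount of 0.1, no filter on low values, 2 scalings, only the groups compared, eBayes with neither setting, a replicate block, each library left out, and control 1 with nano-SiO2 2 left out.

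The genes, pathway and marker lists were chosen with earlier results of these data known. Named were called ABA genes, the most abundant gene of each role, the gene with the smallest F test p in roles with no call, and called pathway genes. Others are marked in the text as chosen after their values were seen.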

Additional observations from a re-analysis of the deposited data

How the results depend on the processing

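The number of ABA genes called moved in 4 of the values computed under the alternatives and did not in the other 135. For MT against control it was 1 with FPKM as deposited, 3 under median-ratio scaling and 3 under quantile normalization. The F test called 1, and 2 under median-ratio scaling. For nano-SiO2+MT against control it was 1, and from 0 to 1 with 1 library left out, with 0 without control 2. The genes added for MT under either scaling were Glyma.09G000600 and Glyma.16G025900, and the cause was not tested. Scaling by median ratios shifted the median log2 change of all genes by 0.05 for MT against control. The shift was 0.15 for nano-SiO2+MT against nano-SiO2 and 0.10 for the interaction. None of the log2 changes with an unadjusted p under 0.05 of the genes named by rule reversed. Of their values under the alternatives, 431 stayed on the same side of the threshold, 4 gained a call and 23 lost one; the lost calls were in Glyma.20G167500, Glyma.13G165300 and Glyma.14G066400.

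Whether the replicate numbers pair the libraries differed between groups. Of 18 pairs with the same number, 9 had correlated deviations above 0.1 (r from -0.34 to 0.53), and 6 of 12 libraries correlated best with their own number. In nano-SiO2+MT and MT every pair with the same number was above 0.1 (0.14, 0.38 and 0.36), and with these groups alone and a replicate block, chosen after seeing the data, 0 ABA genes were called between them, as without it. No other 2 groups met this in every pair. With the replicate block over all libraries 1 ABA gene was called for MT, 1 for nano-SiO2+MT and 1 by the F test, as without it. Absolute depth is unknown, so counting error cannot be given, and genes under 1 FPKM are the least certain.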
